A study of Cricetulus griseus with 24 samples.

Results

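Heparan sulfate synthesis enzymes were followed across 3 Chinese hamster ovary (CHO) cell lines. The genes are Xylt2, B4galt7, Extl3, Ext1, Ext2, Ndst1, Ndst2, Glce, Hs2st1 and Hs6st1, chosen by symbol, and all 10 are among the 28037 genes of the deposited count table. Heparan sulfate is a sulfated sugar chain that is built in the Golgi on serines of core proteins such as syndecans, glypicans and perlecan. Xylosyltransferase and galactosyltransferase start a short linker, exostosin enzymes commit and extend the chain, and N-deacetylase/N-sulfotransferases, an epimerase and O-sulfotransferases then modify it. CHO cells are the classical model of this pathway, since mutant CHO lines lacking single enzymes, among them those of Xylt2, B4galt7, Ext1, Ndst1 and Hs2st1, helped to assign the steps.

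A0 is an antibody-producing clone of the CHO DG44 host. It was made with a plasmid carrying the antibody heavy chain and a plasmid carrying the light chain and a neomycin resistance gene, was selected with G418 and was then grown without it. A1 is the progeny of A0 after stepwise selection with methotrexate (MTX) and produces more antibody. CHO-S is a non-producing CHO line that the study used as a negative control. Each line is a single cell line, so host, transfection history and clone differ together between CHO-S and the producers and cannot be told apart. RNA of shake flask batch cultures was taken at exponential and at stationary phase, from 4 A0, 3 A1 and 3 CHO-S cultures per phase. The 8 exponential A0 libraries carry 4 culture numbers and were summed per culture, which gave 20 cultures from 24 libraries. The titles of the CHO-S libraries carry the letters NDST, which the labels do not explain.

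Between 1038026 and 14652646 reads per library fell on genes. The lowest total was that of CHO-S stationary culture 1, and the other libraries had at least 6532373. In that library 32.8% of all reads fell outside genes, against 11.9% to 18.4% in the others, and 7 of the 10 enzymes had their lowest CHO-S level there, so the called differences of the enzymes and pathway genes from stationary CHO-S are given with and without it. Medians, counts of overlap and correlations include it. The paired libraries of an A0 exponential culture were further apart than counting noise allows, with a chi-square per degree of freedom of 26.8 in culture 1, 5.98 in culture 2, 3.12 in culture 3 and 2.74 in culture 4. Of the cell type markers, the mesenchymal genes Vim and Fn1 were high in every group (group means of at least 799 and 373 CPM), while the collagens Col1a1 and Col1a2 stayed at or below 0.666 CPM. Mesenchymal markers moved with the lines: the summed level of all 5 was 1755 to 1848 CPM in exponential A0, 1626 to 1740 CPM in exponential A1 and 3250 to 3431 CPM in exponential CHO-S. At stationary phase it was 1278 to 1414 CPM in A0, 2202 to 2458 CPM in A1 and 3136 to 4268 CPM in CHO-S. Fn1 and Pdgfrb were lower in both producers than in CHO-S at both phases, and Vim, Fn1 and Pdgfrb were higher in A1 than in A0 at stationary phase. At exponential phase 2 of the 5 were higher and 2 lower in A0 than in CHO-S (49.2% of all genes passed), and 1 higher and 2 lower in A1 (57.2%). At stationary phase 0 were higher and 2 lower in A0 (40.0%), and 1 higher and 3 lower in A1 (34.8%). Between A1 and A0, 2 were higher in A1 and 1 lower at exponential phase (25.7%), and 3 and 0 at stationary phase (33.7%). The epithelial genes Epcam and Cdh1 were higher in both producers than in CHO-S at exponential phase, where the list summed to at most 3.12 CPM in A0, 2.82 CPM in A1 and 0.251 CPM in CHO-S. The part of these differences in the results on the enzymes was not tested. The leukocyte genes Ptprc, Cd3e and Itgam reached at most 0.228 CPM in any culture, the epithelial genes Epcam, Cdh1 and Krt8 at most 3.54 CPM (Krt18 had at most 1 read), and the endothelial genes Pecam1, Cdh5, Kdr and Tek at most 7.18 CPM. CHO cells come from hamster ovary. Of the granulosa markers Fshr had no read, and Amh and Inha reached 2.42 and 7.48 CPM. In bulk RNA, fewer cells with a transcript and less RNA per cell cannot be told apart. Levels are CPM, counts scaled to the total reads on genes of each culture after TMM normalization. They are not divided by transcript length and are compared only between samples, not between genes. Differences are log2 fold changes from edgeR's quasi-likelihood test, with the standard error (SE) of the fit and p-values adjusted over all genes tested. A difference is called past the threshold at an adjusted p under 0.05. Nothing in the labels says whether cultures of a group are independent. The p-values set each difference against the modelled spread between these cultures, and they do not cover spread between clones.

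The largest differences lay between CHO-S and both antibody-producing lines, and they were in Ndst2, Ext1 and Ndst1. At exponential phase Ndst2 was 4.28-fold lower in A0 and 5.46-fold lower in A1 than in CHO-S, Ext1 was 3.75-fold and 2.83-fold lower, and Ndst1 was 2.54-fold and 2.44-fold lower. Between A1 and A0 the largest exponential differences were in Xylt2, 1.81-fold higher in A1, and in Glce, 1.59-fold lower. At stationary phase Ext2 was 1.97-fold lower in A1 than in A0. The plot of levels by culture shows each gene on its own scale.

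**Figure D1:**
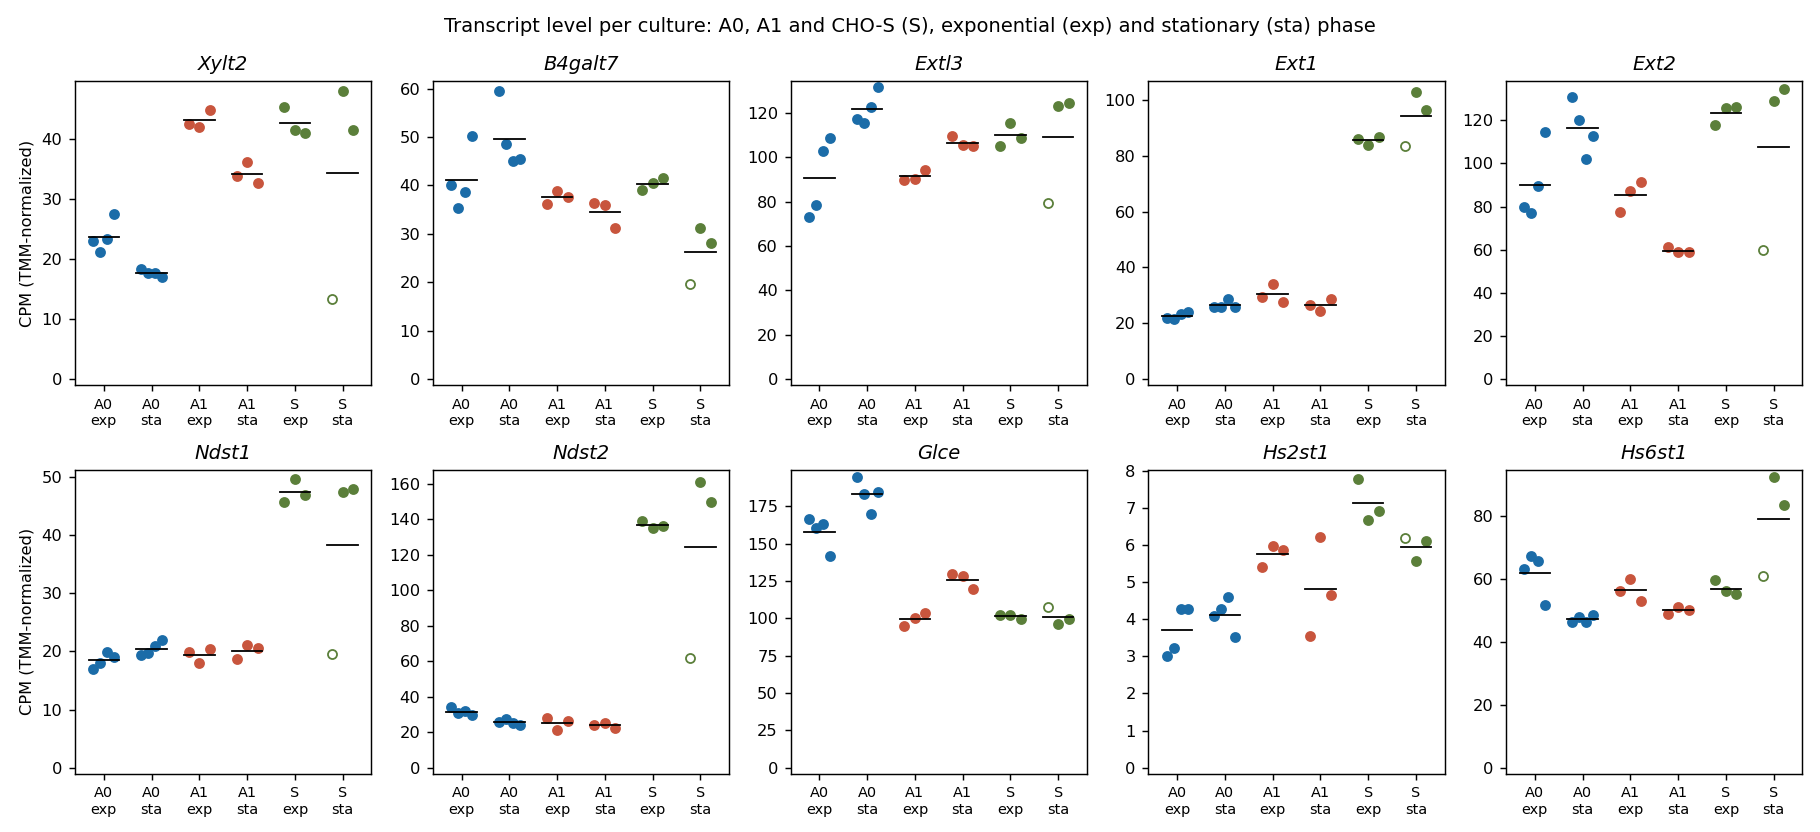
Level of each of the 10 enzymes in CPM (TMM-normalized, linear axis from 0) in every culture of A0, A1 and CHO-S (S) at exponential (exp) and stationary (sta) phase. Each point is 1 culture, black lines are group means, and the open point is CHO-S stationary culture 1, which had 1038026 reads on genes. Ndst2 and Ext1 are higher in every CHO-S culture than in any A0 or A1 culture, and Xylt2 is lower in every A0 culture than in any A1 culture.

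Xylt2 encodes a xylosyltransferase, which attaches the first sugar of the linker to the core protein. Exponential A0 cultures had 23.1, 21.2, 23.4 and 27.5 CPM, A1 cultures 42.5, 42.0 and 44.9 CPM, and CHO-S cultures 45.4, 41.5 and 41.1 CPM. A0 was below both other lines without overlap, while A1 and CHO-S overlapped. At stationary phase A0 had 18.3, 17.7, 17.7 and 17.1 CPM and A1 had 33.8, 36.2 and 32.8 CPM. A1 exceeded A0 by 0.86 on the log2 scale at exponential phase (SE 0.10, adjusted p = 3.31e-05) and by 0.94 at stationary phase (SE 0.09, adjusted p = 3.61e-06). A0 was below CHO-S at exponential phase (log2 fold change -0.83, SE 0.10, adjusted p = 9.66e-06), and for A1 against CHO-S the value was 0.01 (adjusted p = 0.929). In stationary CHO-S the cultures had 13.4, 48.0 and 41.6 CPM. The first of these is the library of low depth and rests on 13 reads, with an exact Poisson 95% interval of 7.14 to 22.9 CPM that covers counting error only. A0 against CHO-S at stationary phase was -1.11 (adjusted p = 0.0069), and -1.33 without that culture (adjusted p = 7.27e-07). A1 against CHO-S at stationary phase was -0.16 (adjusted p = 0.733), and -0.42 and past the threshold without it (adjusted p = 6.84e-05).

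B4galt7 encodes the galactosyltransferase that adds the second sugar of the linker. Exponential levels were 40.1, 35.4, 38.6 and 50.2 CPM in A0, 36.2, 38.8 and 37.6 CPM in A1, and 39.1, 40.4 and 41.5 CPM in CHO-S. At this phase A0 overlapped both other lines, and no comparison between the lines was past the threshold. At stationary phase A0 had 59.6, 48.5, 45.1 and 45.4 CPM, above the 36.4, 35.9 and 31.3 CPM of A1 and the 19.6, 31.3 and 28.0 CPM of CHO-S. A1 was then below A0 (log2 fold change -0.54, SE 0.11, adjusted p = 0.00135), and A0 was above CHO-S (0.83, SE 0.18, adjusted p = 0.00473). Without CHO-S stationary culture 1 the second difference was 0.75 (adjusted p = 0.000401), and with A0 cultures 3 and 4 alone it was 0.70 and no longer past the threshold (adjusted p = 0.0547).

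Extl3 encodes the glycosyltransferase that adds the first glucosamine and thereby commits the linker to heparan sulfate. Exponential A0 cultures had 73.3, 78.3, 103 and 109 CPM. A1 cultures had 89.6, 90.4 and 94.4 CPM and lay within the A0 range, and CHO-S had 105, 116 and 109 CPM. The libraries of A0 culture 1 themselves had 90.0 CPM in the first and 59.3 CPM in the one marked RLT. At stationary phase A0 had 117, 116, 123 and 132 CPM, A1 had 109, 105 and 105 CPM, and CHO-S had 79.5, 123 and 125 CPM. A1 was below CHO-S at exponential phase (log2 fold change -0.27, SE 0.05, adjusted p = 0.000105), a call lost in 1 fit over all 6 groups (adjusted p = 0.164). At stationary phase A1 was below A0 by a small margin (-0.20, SE 0.07, adjusted p = 0.0418), and this call was lost without A0 culture 3 or 4 or without any 1 of the A1 cultures. Without CHO-S stationary culture 1, A1 was also below CHO-S at that phase (-0.24, adjusted p = 0.00204).

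Ext1 encodes a subunit of the exostosin copolymerase, which extends the chain. CHO-S was far above both producers: exponential CHO-S cultures had 86.1, 84.0 and 86.6 CPM, A0 had 21.7, 21.5, 23.2 and 24.1 CPM, and A1 had 29.5, 34.1 and 27.7 CPM. At stationary phase the levels were 83.6, 103 and 96.2 CPM in CHO-S, 25.9, 25.9, 28.8 and 25.9 CPM in A0, and 26.6, 24.5 and 28.6 CPM in A1. No producer culture came near a CHO-S culture at either phase. Against CHO-S, A0 had a log2 fold change of -1.91 (SE 0.08, adjusted p = 2.37e-10) at exponential and -1.85 (SE 0.14, adjusted p = 4.31e-06) at stationary phase. For A1 the values were -1.50 (SE 0.07, adjusted p = 4.29e-15) and -1.86 (SE 0.16, adjusted p = 8.25e-05). Without CHO-S stationary culture 1 the stationary values were -1.89 for A0 and -1.94 for A1. A1 exceeded A0 at exponential phase (0.42, SE 0.10, adjusted p = 0.00742), though not without A1 culture 2 (adjusted p = 0.0738), and the cultures overlapped at stationary phase (-0.01, adjusted p = 0.925). The libraries of A0 culture 1 had 26.8 CPM of Ext1 in the first and 17.5 CPM in the one marked RLT. With the first library of each A0 culture alone, the exponential difference was 0.31 (adjusted p = 0.0365).

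Ext2, the partner of Ext1 in the copolymerase, had another pattern. Exponential levels were 79.6, 77.2, 89.7 and 114 CPM in A0, 77.4, 87.4 and 91.3 CPM in A1, and 118, 126 and 126 CPM in CHO-S. At stationary phase A0 had 131, 120, 102 and 113 CPM, while A1 had 61.0, 58.8 and 58.9 CPM, with no overlap. CHO-S had 59.9, 129 and 134 CPM, the first being the library of low depth. A1 was below A0 by 0.98 on the log2 scale at stationary phase (log2 fold change -0.98, SE 0.09, adjusted p = 1.74e-06), and at exponential phase the value was -0.08 (SE 0.13, adjusted p = 0.686). Both producers were below CHO-S at exponential phase, by -0.44 for A0 (SE 0.12, adjusted p = 0.00636) and -0.53 for A1 (SE 0.06, adjusted p = 2.38e-08). The A0 call was lost with A0 cultures 3 and 4 alone (adjusted p = 0.0618). At stationary phase A1 was below CHO-S by -0.91 (SE 0.27, adjusted p = 0.029), and by -1.17 without CHO-S culture 1. A0 against CHO-S was 0.06 (adjusted p = 0.867) with that culture and -0.16 (adjusted p = 0.194) without it.

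Ndst1 and Ndst2 encode N-deacetylase/N-sulfotransferases, which replace acetyl groups of glucosamine by sulfate and set where later sulfation occurs. Ndst1 levels at exponential phase were 17.1, 18.02, 19.97 and 19.1 CPM in A0, 19.9, 18.1 and 20.4 CPM in A1, and 45.6, 49.6 and 46.9 CPM in CHO-S. At stationary phase A0 had 19.4, 19.7, 20.9 and 22.03 CPM, A1 had 18.8, 21.1 and 20.6 CPM, and CHO-S had 19.6, 47.5 and 48.0 CPM. In A0 exponential culture 1 the first library had 20.3 CPM and the one marked RLT 14.3 CPM. The 2 producers overlapped each other at both phases, and every CHO-S culture other than stationary culture 1 lay above them. That culture had 19 reads of Ndst1, with an exact Poisson 95% interval of 11.8 to 30.6 CPM, below its sister cultures. At exponential phase the log2 fold change against CHO-S was -1.34 in A0 (SE 0.09, adjusted p = 2.68e-08) and -1.29 in A1 (SE 0.08, adjusted p = 5.4e-13). At stationary phase it was -1.03 in A0 (SE 0.22, adjusted p = 0.00429) and -1.05 in A1 (SE 0.25, adjusted p = 0.0132), and without CHO-S culture 1 it was -1.20 and -1.26. A1 against A0 gave 0.07 (SE 0.11, adjusted p = 0.686) at exponential and -0.03 (SE 0.10, adjusted p = 0.859) at stationary phase.

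Whether the letters NDST in the CHO-S titles bear on these genes was not tested. Ndst2 showed the largest difference of all 10 genes. Exponential CHO-S cultures had 139, 135 and 136 CPM, against 34.3, 30.8, 31.98 and 29.5 CPM in A0 and 28.1, 21.1 and 26.1 CPM in A1. At stationary phase CHO-S had 61.9, 161 and 150 CPM, A0 had 25.8, 27.2, 25.3 and 24.3 CPM, and A1 had 24.03, 25.4 and 22.6 CPM. Even CHO-S stationary culture 1, at 61.9 CPM from 60 reads, lay above every producer culture. The log2 fold change against CHO-S was -2.10 in A0 (SE 0.08, adjusted p = 8.25e-11) and -2.45 in A1 (SE 0.07, adjusted p = 2.15e-18) at exponential phase. At stationary phase it was -2.33 in A0 (SE 0.26, adjusted p = 6.97e-05) and -2.42 in A1 (SE 0.31, adjusted p = 0.000663). Without CHO-S culture 1 these stationary values were -2.58 and -2.72. A1 lay below A0 at exponential phase (-0.34, SE 0.11, adjusted p = 0.0416), a call that was kept in 7 of 15 alternative fits, and the value at stationary phase was -0.10 (adjusted p = 0.445).

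Glce encodes the C5-epimerase, which turns glucuronic into iduronic acid, and it was highest in A0. At exponential phase A0 had 166, 160, 163 and 142 CPM, A1 had 94.6, 100 and 104 CPM, and CHO-S had 102, 103 and 99.9 CPM. At stationary phase A0 had 194, 184, 170 and 184 CPM, A1 had 130, 128 and 120 CPM, and CHO-S had 107, 96.4 and 99.7 CPM. No A0 culture overlapped a culture of another line at the same phase. A1 was below A0 by -0.67 (SE 0.09, adjusted p = 9.12e-05) at exponential and -0.55 (SE 0.07, adjusted p = 4.12e-05) at stationary phase. A0 was above CHO-S by 0.65 (SE 0.09, adjusted p = 1.77e-05) and 0.84 (SE 0.14, adjusted p = 0.000815). A1 and CHO-S overlapped at exponential phase (-0.03, adjusted p = 0.616). At stationary phase A1 had the higher cultures (0.30, adjusted p = 0.133), and without CHO-S culture 1 that difference was 0.34 and past the threshold (adjusted p = 3.34e-05).

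Hs2st1 encodes the 2-O-sulfotransferase, which acts mainly on iduronic acid, and rested on few reads, at most 109 per culture. Its identifier is the only one of the 10 with no match in the RefSeq gene table, and whether the gene model is complete was not examined. Exponential levels were 3.00, 3.24, 4.26 and 4.29 CPM in A0, 5.40, 5.97 and 5.87 CPM in A1, and 7.79, 6.68 and 6.91 CPM in CHO-S, so the 3 lines did not overlap. A1 exceeded A0 (log2 fold change 0.64, SE 0.18, adjusted p = 0.017) and A0 was below CHO-S (-0.94, SE 0.17, adjusted p = 0.00033). A1 against CHO-S gave -0.32 (adjusted p = 0.0568). The call between A1 and A0 was lost on leaving out culture 2 of A0, or culture 2 or 3 of A1. At stationary phase the levels were 4.09, 4.29, 4.60 and 3.52 CPM in A0, 3.55, 6.21 and 4.66 CPM in A1 and 6.19, 5.57 and 6.10 CPM in CHO-S, and no comparison between the lines was past the threshold, with or without CHO-S culture 1.

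Hs6st1 encodes a 6-O-sulfotransferase. At exponential phase the lines overlapped, with 62.9, 67.2, 65.5 and 51.6 CPM in A0, 56.2, 59.9 and 52.9 CPM in A1, and 59.4, 56.1 and 55.1 CPM in CHO-S. The libraries of A0 culture 1 had 77.1 CPM in the first and 51.0 CPM in the one marked RLT. At stationary phase A0 had 46.3, 47.8, 46.1 and 48.5 CPM, A1 had 48.9, 51.1 and 49.9 CPM, and CHO-S had 60.9, 92.3 and 83.3 CPM. Both producers then lay below every CHO-S culture. The log2 fold change against CHO-S was -0.78 in A0 (SE 0.16, adjusted p = 0.00264) and -0.70 in A1 (SE 0.17, adjusted p = 0.0149), and -0.88 and -0.84 without CHO-S culture 1.

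Counts of enzymes past the threshold have to be read against the share of all genes that passed it. That share includes many genes with few reads, and it rises under the stricter gene filter filterByExpr. With that filter 7 enzymes and 65.2% of genes passed between A0 and CHO-S at exponential phase, and 7 and 51.4% at stationary phase. Between A1 and CHO-S the counts were 6 (74.2%) and 5 (44.6%), and between A1 and A0 5 (36.7%) and 5 (47.2%). Between growth phases they were 7 (53.3%) in A0 and 4 (47.2%) in A1. Between A0 and CHO-S at exponential phase 1 enzyme was higher in A0 (Glce) and 6 were lower (Ndst2, Ext1, Ndst1, Hs2st1, Xylt2 and Ext2), while 49.2% of the 20052 genes tested passed, 27.4% higher and 21.8% lower. The cultures of A0 and CHO-S did not overlap for 7 enzymes, and for 53.6% of all genes. The median log2 fold change was -0.64 over the 10 enzymes and 0.15 over all genes tested. At stationary phase 2 were higher (Glce, B4galt7) and 5 lower (Ndst2, Ext1, Xylt2, Ndst1 and Hs6st1), against 40.0% of all genes, 20.7% higher and 19.3% lower, with medians of -0.65 and 0.08. Over genes with at least 5 CPM on average the median was 0.022 at exponential and -0.0049 at stationary phase. For 6 enzymes and 45.1% of all genes the cultures did not overlap. Without CHO-S culture 1 the same 7 enzymes passed the threshold and 51.8% of all genes did. Without CHO-S culture 2, Ndst1 and Xylt2 lost their calls (-0.81, adjusted p = 0.0539, and -0.78, adjusted p = 0.0893).

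Between A1 and CHO-S at exponential phase 5 enzymes were lower in A1 (Ndst2, Ext1, Ndst1, Ext2 and Extl3), where 57.2% of all genes passed (30.0% higher, 27.1% lower), and the medians were -0.29 over the enzymes and 0.05 over all genes. For 7 enzymes and 62.0% of all genes the cultures did not overlap. None was higher by edgeR, at an unadjusted p under 0.05 or by DESeq2. At stationary phase 5 were lower (Ndst2, Ext1, Ndst1, Ext2 and Hs6st1) against 34.8% of all genes (18.2% higher, 16.6% lower), with medians of -0.47 and 0.06. Over genes with at least 5 CPM on average the median was -0.013 at exponential and -0.0061 at stationary phase. For 6 enzymes and 48.6% of all genes the cultures did not overlap. By edgeR 0 were higher at that phase, also at an unadjusted p under 0.05, and by DESeq2 1 was. Without CHO-S culture 1, 7 were lower and 1 higher, and 57.4% of all genes passed. Without any 1 of the other stationary cultures, 2 enzymes passed, Ndst2 and Ext1.

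Between A1 and A0 at exponential phase 3 enzymes were higher in A1 (Xylt2, Hs2st1, Ext1) and 2 lower (Glce, Ndst2), against 25.7% of the 20021 genes tested, 12% higher and 13.8% lower. The cultures did not overlap for 5 enzymes and 34.3% of all genes. The median was -0.04 over the enzymes and -0.04 over all genes. Without A1 culture 2, 2 enzymes and 17.1% of all genes passed. Without A0 culture 2, 3 enzymes and 20.7% of all genes passed, and without A1 culture 3, 3 enzymes and 15.9%. At stationary phase 1 was higher (Xylt2) and 4 were lower (Ext2, Glce, B4galt7, Extl3), against 33.7% of all genes (16% higher, 17.7% lower), with medians of -0.07 and -0.0021. Over genes with at least 5 CPM on average the median was -0.0085 at exponential and -0.0044 at stationary phase. The cultures did not overlap for 6 enzymes and 40.0% of all genes. Xylt2 and Glce passed the threshold at both phases in all alternative fits. The comparisons between the lines share cultures of A0, A1 and CHO-S, so their values for 1 gene are not independent of each other. The plot of differences between the lines shows them side by side.

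**Figure D2:**
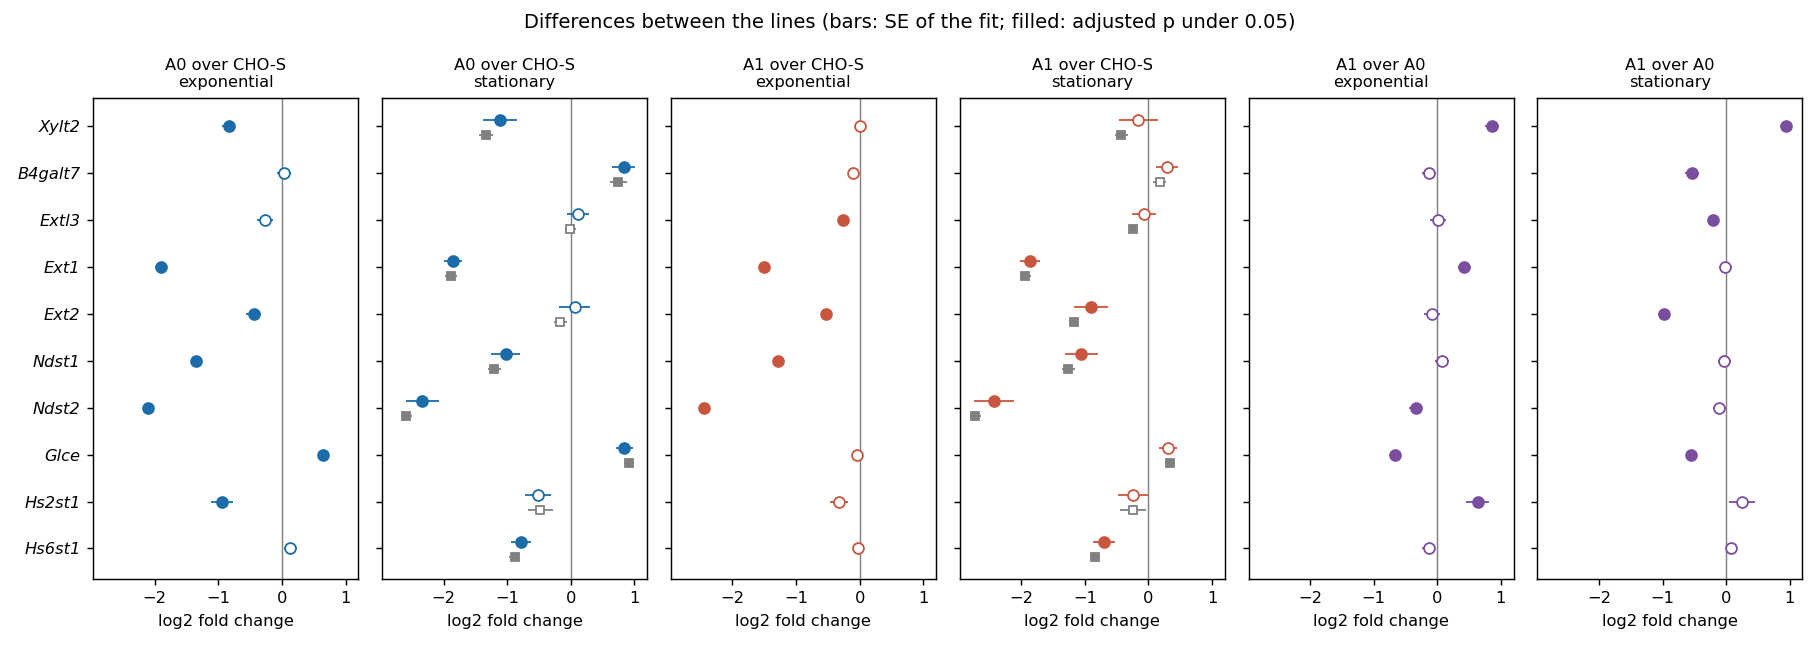
Log2 fold change of the 10 enzymes between the lines at each growth phase, with bars for the SE of the edgeR fit and filled symbols for an adjusted p under 0.05. Circles are the fits with all cultures and grey squares are stationary CHO-S comparisons without CHO-S culture 1. Ndst2 lies at -2.10 and -2.45 against CHO-S at exponential phase, and Xylt2 lies at 0.86 and 0.94 between A1 and A0.

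In A0, 5 enzymes differed between growth phases, against 37.6% of all genes (17.6% higher and 20% lower at stationary phase). The phases did not overlap for 6 enzymes and 35.7% of all genes. Extl3 rose at stationary phase (log2 fold change 0.41, SE 0.12, adjusted p = 0.0135) and so did Ext2 (0.36, SE 0.12, adjusted p = 0.0324). Xylt2 fell (-0.44, SE 0.11, adjusted p = 0.00499), as did Hs6st1 (-0.40, SE 0.10, adjusted p = 0.00461) and Ndst2 (-0.32, SE 0.10, adjusted p = 0.0182). For Ext2, A0 culture 4 overlapped the stationary range at exponential phase, and the call was kept in 9 of 16 alternative fits. That of Ndst2 was kept in 11, those of Extl3 and Hs6st1 in 15 and that of Xylt2 in all 16. A0 cultures 1 and 2 lay apart from cultures 3 and 4 in some enzymes: exponential Extl3 was 73.3 and 78.3 CPM in the first pair and 103 and 109 CPM in the second. Only the sums of cultures 1 and 2 include libraries marked RLT, which had 59.3 and 70.0 CPM. The first libraries had 90.0 and 84.7 CPM in cultures 1 and 2, and 108 and 104 CPM in cultures 3 and 4. The part of the RLT libraries in the phase differences was not tested. With the first library of each exponential culture alone, 4 enzymes and 38.1% of all genes passed between the phases. Without exponential culture 1, 3 enzymes and 35.8% of all genes passed. With cultures 1 and 2 alone 6 enzymes and 40.9% of all genes passed, and with cultures 3 and 4 alone 1 enzyme (Xylt2, -0.55) and 27.2% of all genes. The fits on 2 cultures were chosen after the values were seen. With the replicate number as a block, 6 enzymes and 42.6% of all genes passed, B4galt7 being the added one (0.26, adjusted p = 0.0218).

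In A1, 4 enzymes differed between the phases, against 33.4% of all genes (15.6% higher, 17.8% lower). Glce rose at stationary phase (log2 fold change 0.35, SE 0.06, adjusted p = 2.63e-05), as did Extl3 (0.24, SE 0.06, adjusted p = 0.00252). Ext2 fell (-0.50, SE 0.07, adjusted p = 7.46e-07) and so did Xylt2 (-0.31, SE 0.08, adjusted p = 0.00223). All 4 had no overlap between the phases, as had Hs6st1, against 42.9% of all genes. In 1 fit over all 6 groups only Glce passed the threshold, and 11.6% of all genes did.

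In CHO-S, edgeR called 0 enzymes between the phases, where 13.3% of all genes passed (6.81% higher, 6.48% lower). The phases did not overlap for 3 enzymes and 36.4% of all genes. At an unadjusted p under 0.05 by edgeR there were 2 at stationary phase, Hs6st1 higher (0.50, adjusted p = 0.0911) and B4galt7 lower (-0.53, adjusted p = 0.0612). DESeq2 called these same 2. Without stationary culture 1, 5 enzymes and 47.7% of all genes passed. Hs6st1 was then higher at stationary phase (0.64, adjusted p = 3.47e-16), as were Ext1 (0.23), Ndst2 (0.19) and Extl3 (0.18), and B4galt7 was lower (-0.42, adjusted p = 4.32e-06).

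The difference between A1 and A0 depended on the growth phase for Ext2. Its log2 fold change from exponential to stationary phase was 0.36 in A0 and -0.50 in A1, an interaction of -0.90 (SE 0.16, adjusted p = 0.00117), and 8.92% of all genes had an interaction past the threshold (5.03% above 0, 3.89% below). This call was kept in all 22 alternative fits, from -1.21 with A0 cultures 1 and 2 alone to -0.59 with cultures 3 and 4 alone. With culture numbers as a block within each line, Ext2 was at -0.91, and Ext1 (-0.44, adjusted p = 0.033) and B4galt7 (-0.41, adjusted p = 0.0295) passed as well, as did 16.4% of all genes. Between A0 and CHO-S the interaction was past the threshold for Hs6st1 (-0.93, SE 0.19, adjusted p = 0.00341) and B4galt7 (0.76, SE 0.21, adjusted p = 0.0268), against 10.3% of all genes (3.77% above 0, 6.55% below). Hs6st1 fell in A0 at stationary phase, while each stationary CHO-S culture lay above each exponential one. B4galt7 lost its call without A0 exponential culture 2 or 3, A0 stationary culture 1 or any 1 of the exponential CHO-S cultures. With A0 cultures 3 and 4 alone neither A0 interaction passed. Between A1 and CHO-S only Hs6st1 passed (-0.69, SE 0.16, adjusted p = 0.0181), against 7.60% of all genes (3.83% above 0, 3.77% below), a call kept in 6 of 17 alternative fits. Without CHO-S stationary culture 1 there were 4 interactions for A0 and 5 for A1, against 17.2% and 25.4% of all genes. The plot of differences between growth phases gives the 3 lines side by side.

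**Figure D3:**
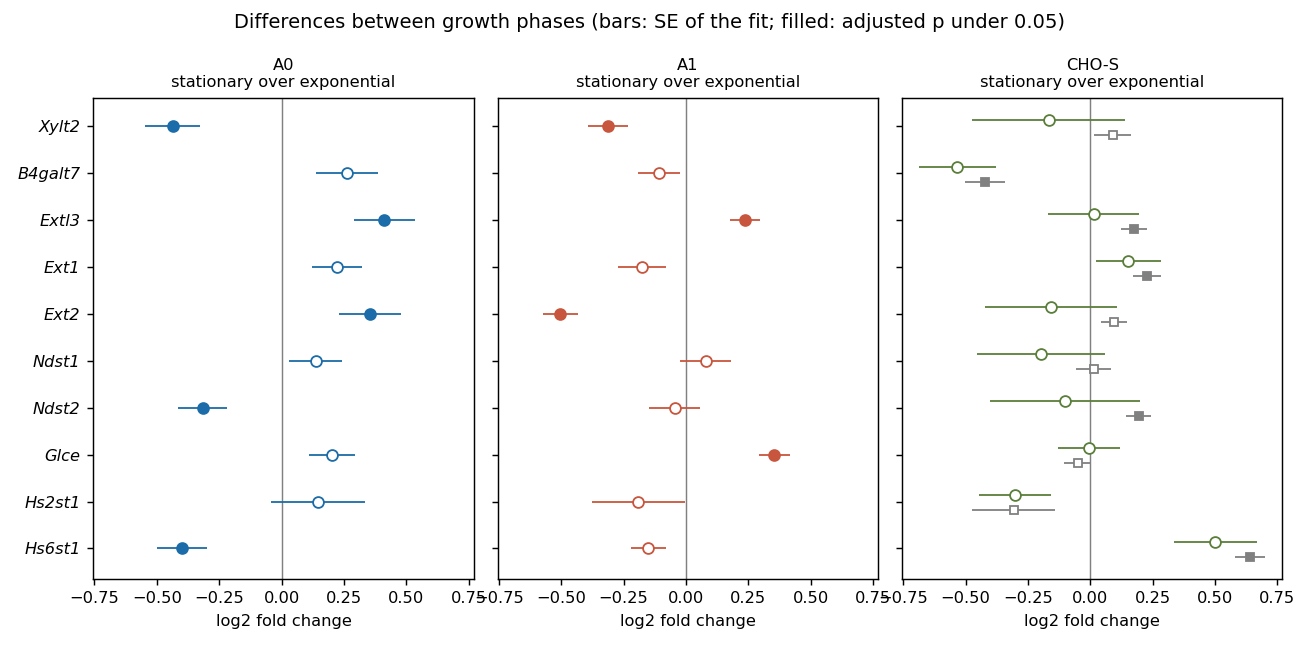
Log2 fold change of the 10 enzymes from exponential to stationary phase in A0, A1 and CHO-S, with bars for the SE of the edgeR fit and filled symbols for an adjusted p under 0.05. Grey squares leave out CHO-S stationary culture 1. Ext2 lies at 0.36 in A0 and -0.50 in A1. Hs6st1 lies at -0.40 in A0, and in CHO-S at 0.50 with all cultures (not past the threshold) and 0.64 without stationary culture 1.

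The other genes of the pathway were taken from lists of linker, elongation, sulfation, editing, precursor, core protein, lysosomal and chondroitin genes, 61 of which are in the table. Between A1 and A0, 8 were higher in A1 and 10 lower of 47 tested at exponential phase, where 25.7% of all genes passed, and 7 were higher and 16 lower of 48 at stationary phase, where 33.7% did. Between A0 and CHO-S at exponential phase 16 were higher in A0 and 14 lower of 48, against 49.2% of all genes, and between A1 and CHO-S 15 were higher and 18 lower of 47, against 57.2%. At stationary phase 11 were higher and 10 lower of 49 in A0 than in CHO-S (40.0% of all genes passed), and 14 and 16 without CHO-S culture 1 (51.8%). For A1 these counts were 7 higher and 12 lower of 47 (34.8%), and 15 and 22 without it (57.4%). Of the 5 other linker genes, 1 was lower and 0 higher in A1 than in A0 at exponential phase by edgeR (Pxylp1, -0.86). At stationary phase 4 were lower and 0 higher, where 17.7% of all genes were lower: the galactosyltransferase B3galt6 (-0.28), the glucuronosyltransferase B3gat3 (-0.44), the xylose kinase Fam20b (-0.23) and the xylose phosphatase Pxylp1 (-0.38).

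Among close relatives of the enzymes, Xylt1, Extl1 and Hs6st3 had reads in the producers and at most 1 in any CHO-S culture. Genes picked for having no more than 3 counts in every CHO-S culture can only be higher in the producers. Their direction therefore follows from how they were picked, and it is not set against that of the enzymes. Xylt1, the second xylosyltransferase, had 6.47 to 8.90 CPM in exponential A0 and 6.48 to 8.45 CPM in exponential A1, and no read in any CHO-S culture. Extl1, an exostosin-like glycosyltransferase, had 5.43 to 6.75 CPM in exponential and 12.4 to 19.7 CPM in stationary A0, and at most 1 read in any CHO-S culture. Hs6st3, another 6-O-sulfotransferase, had 9.93, 12.7, 9.76 and 8.45 CPM in exponential A0, 2.13, 2.48 and 1.30 CPM in exponential A1, and at most 1 read in any CHO-S culture. Taking 3 reads over the summed CHO-S cultures as the floor, exponential A0 was at least 98.7-fold higher for Xylt1, 76.9-fold for Extl1 and 133-fold for Hs6st3. Hs6st3 was also lower in A1 than in A0, by -2.39 at exponential (SE 0.22, adjusted p = 2.52e-06) and -2.55 at stationary phase (SE 0.22, adjusted p = 1.07e-06), without overlap.

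**Figure D4:**
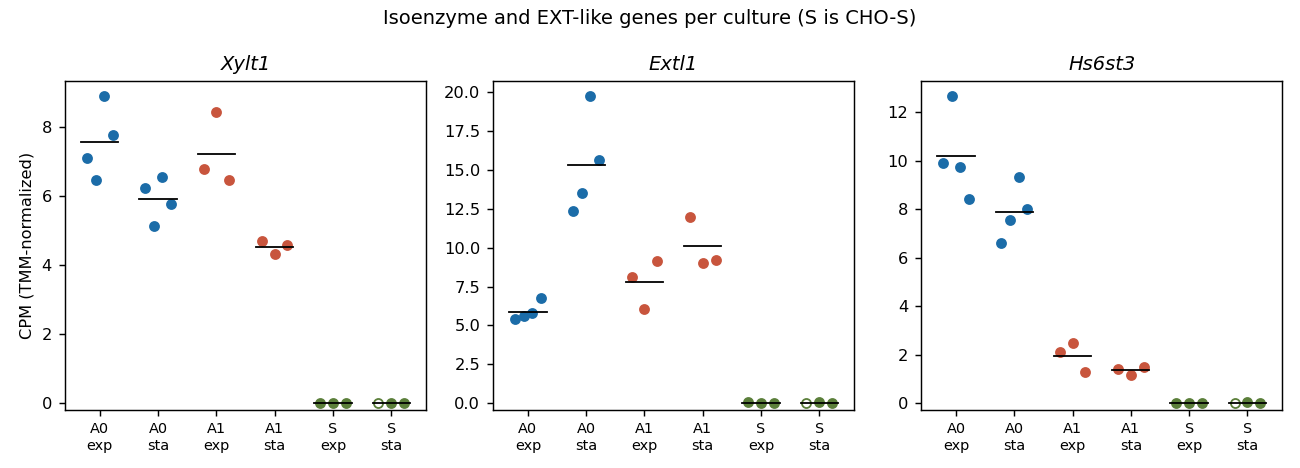
Level in CPM (TMM-normalized, linear axis) of Xylt1, Extl1 and Hs6st3 in every culture of A0, A1 and CHO-S (S). Each point is 1 culture, lines are group means and the open point is CHO-S stationary culture 1. CHO-S cultures have at most 1 read of each gene, and Hs6st3 is 2.48 CPM or less in every A1 culture and 6.61 CPM or more in every A0 culture.

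The 3-O-sulfotransferase genes Hs3st1, Hs3st2, Hs3st5 and Hs3st6 and the 6-O-sulfotransferase gene Hs6st2 had at most 3 reads in every culture of all lines. The same held for the core protein genes Sdc2, Sdc3, Gpc2 and Gpc4, for Papss2, which makes the sulfate donor, and for the chondroitin genes Chsy3, Chst3, Chst7 and Chst13. Papss1, which is on the list of precursor and sulfate donor genes, and Hs3st3a1, Hs3st3b1 and Hs3st4 were not analysed. The low counts therefore do not show that transcripts for the sulfate donor or 3-O-sulfation are lacking. Chst15, a sulfotransferase of the chondroitin branch, had at most 1 read in any A0 or A1 culture and 1.00 to 1.36 CPM in exponential CHO-S. Sulf1, an extracellular 6-O-endosulfatase, had no read in CHO-S and at most 0.416 CPM elsewhere, and Hpse2 and Csgalnact1 had at most 1 read in any CHO-S culture.

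Of 9 core protein genes tested, 0 were higher and 4 lower in exponential A0 than in CHO-S by edgeR, where 49.2% of all genes passed (27.4% higher, 21.8% lower). In exponential A1 4 were higher and 2 lower than in A0, where 25.7% of all genes passed. At stationary phase 3 were higher and 2 lower in A1 than in A0, where 33.7% of all genes passed. The lower ones were the syndecan Sdc1 (-0.76, adjusted p = 8.8e-06) and Gpc5, which averaged 0.440 CPM in A0 and 0.0474 CPM in A1. Hspg2 (perlecan) had 751, 752, 887 and 998 CPM in exponential A0 and 1943, 2104 and 2107 CPM in exponential CHO-S (log2 fold change -1.27, SE 0.10, adjusted p = 1.48e-07). At stationary phase Hspg2 was 2.79-fold higher in A1 than in A0 (SE 0.18 on the log2 scale, adjusted p = 2.37e-05), and so were the collagen Col18a1 (2.75-fold, adjusted p = 0.00347) and the glypican Gpc6 (2.66-fold, adjusted p = 1.36e-06). The heparanase gene Hpse was below CHO-S in exponential A0 (31.8 against 67.0 CPM on average, adjusted p = 2.04e-07). Chst11, a chondroitin sulfotransferase, was also below CHO-S in exponential A0 (-1.25), and Col18a1 in exponential A1 (-1.27). At stationary phase the glucuronidase gene Gusb was lower in A1 than in A0 (-1.13, adjusted p = 3.61e-07), and Ugp2, which makes UDP-glucose, was higher (1.05, adjusted p = 2.59e-07).

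Against stationary CHO-S, the perlecan gene Hspg2 was at -2.55 in A0 and -2.92 without CHO-S culture 1. The other genes below CHO-S at least 2-fold in A0 were Col18a1 (-1.72, and -1.83 without it), Chst12 (-1.52, -1.55), Hpse (-1.36, -1.41), the nucleotide sugar transporter Slc35d2 (-1.13, -1.19), the agrin gene Agrn (-1.11, -1.33) and Gpc6 (-1.09, -0.82). The lysosomal genes Hgsnat and Arsg were higher in A0 (1.28 and 1.18, and 1.26 and 1.22 without it). Sdc1 was at -0.69 in A0 (adjusted p = 0.125), and at -1.03 and past the threshold without that culture. In A1 the genes at least 2-fold below stationary CHO-S were Slc35d2 (-1.54, -1.62), Hpse (-1.44, -1.52), the syndecan Sdc1 (-1.44, -1.82), Chst11 (-1.35, -1.39), Chst12 (-1.11, -1.17) and Agrn (-1.04, -1.29). Apart from Sdc1 in A0, each of these passed the threshold with and without that culture. Hspg2 in A1 was at -1.05 (adjusted p = 0.0888), and at -1.47 without it (adjusted p = 1.66e-36).

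From exponential to stationary phase, 16 of the other pathway genes were higher and 11 lower of 49 tested in A0, where 37.6% of all genes passed, and 11 and 13 of 47 in A1, where 33.4% did. In CHO-S 5 were higher and 2 lower of 42, where 13.3% of all genes passed, and 22 and 8 without stationary culture 1, where 47.7% did. In A0 the syndecan Sdc4 rose 2.80-fold, and Extl1 (2.58-fold), Chst11 (2.42-fold) and the lysosomal gene Naglu (2.14-fold) rose as well. In A0 Chst12 was lower at stationary phase by 4.38-fold, Sgsh, another lysosomal gene, by 2.12-fold and Gpc6 by 2.01-fold. Col18a1 rose 2.55-fold in A1 and Slc35d2 2.61-fold in CHO-S (2.71-fold without stationary culture 1). The phase difference between A1 and A0 was past the threshold and at least 2-fold for Chst12 (1.18), Chst11 (-1.13) and Extl1 (-1.04), and between A0 and CHO-S for Chst12 (-2.07) and Gpc6 (-1.14). Without CHO-S stationary culture 1 the last 2 were -2.07 and -0.89, and Hspg2 was at -1.63 (adjusted p = 4.55e-05), against -1.29 with it (adjusted p = 0.0727).

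Over the 20 cultures, log2 CPM of Ndst1 and Ndst2 moved together (Pearson's r 0.94), as did those of Ndst2 and Ext1 (0.93). Ndst1, Ndst2 and Ext1 all have their high values in CHO-S, so these coefficients largely describe the contrast between the lines. CHO-S stationary culture 1, where Ndst1 had 19.6 CPM and Ndst2 61.9 CPM, enters them and the rankings below as well. Glce ran opposite to Xylt2 (r -0.79) and Hs2st1 (-0.79). Among 10587 genes with at least 5 CPM on average, the patterns most like that of Ndst1 were those of Slc35a2 (r 0.97), a UDP-galactose transporter, LOC100767232 (0.97) and Traf3ip2 (0.97). Those most like that of Ndst2 were Furin (0.99), a proprotein convertase, Itgb5 (0.98), an integrin subunit, and LOC103162746 (0.98). The cultures share line, phase and depth, so no p-value is given.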

How the data were processed

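The authors made TruSeq Stranded mRNA libraries, aligned reads to the Chinese hamster genome (C_griseus_v1.0) with STAR 2.5.4b and counted them per gene with HTSeq-count 0.7.2. The strand setting is not given in the sources used here, so overlapping and antisense genes are uncertain. The deposited values are raw counts, and reads that map to several genes are left out by HTSeq-count by default, so close relatives may be undercounted. The 5 summary lines, 31.8% to 49.8% of the reads of a library, entered neither library sizes nor tests.

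Counts of same-numbered A0 exponential libraries were added up. The test was that of edgeR 4.0.16 in R 4.3.3, on genes with a read in 2 or more libraries and values that varied (TMM, quasi-likelihood, two-sided, Benjamini-Hochberg over all genes tested, threshold 0.05) on the cultures of the groups compared. Interactions used the 4 groups concerned. DESeq2 1.42.0, RLE size factors, another gene filter, all 6 groups in 1 fit, a replicate block, single A0 libraries and leaving out each culture served as alternatives. Fits of some of the comparisons were tried on simulated counts, and the outcomes are not given here. For A0 against CHO-S at stationary phase no minimum of recovered changes was required.

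The 10 enzymes were chosen by symbol, and they and the pathway lists were chosen with earlier results of these data known. Other pathway genes are named where they passed the threshold with at least a 2-fold change and 5 CPM on average, or had no more than 3 counts in any culture of a line, and further examples were chosen after their values were seen. Coordinates are not given because the RefSeq table used for names is of another assembly (CriGri-PICRH-1.0). In it 9 of the 10 enzymes have their identifier. Ndst3, Ndst4, Hs3st3a1, Hs3st3b1, Hs3st4, Ugdh, Papss1 and Chpf2 were not analysed here. A marker gene and a check of the lines are not reported here.

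Same-numbered A0 cultures deviated together between the phases over genes with at least 5 CPM (r of 0.436, 0.32, 0.274 and 0.189 for cultures 1 to 4). Their numbers, which come from the titles, were taken to pair them, which is an assumption. A difference of cultures 1 and 2 from 3 and 4 at both phases would also give positive values, so these cannot show pairing by number. The exponential culture most like a stationary one was that of the same number for cultures 1 and 2, but not for 3 and 4. The main fits of A0 phases and interactions leave this pairing out, and the fits with a replicate block include it. Counts of an enzyme ran from 6 to 4320 per culture.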

Additional observations from a re-analysis of the deposited data

Results flagged for a closer look

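In stationary A0, Ext1 was flagged for 1 culture set apart from the others, by a gap of 0.98 of the group's range. Culture 3 had 28.8 CPM, and the other 3 had 25.87, 25.88 and 25.93 CPM. Because those 3 lie so close together, the flag does not show that culture 3 is far off in level. This group was 1 of 20 groups of 4 cultures examined, and chance alone gives about 1 in 20.

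The effect of growth phase differed between lines in 4 cases. For Ext2 the difference between A1 and A0 was -0.90 on the log2 scale (adjusted p = 0.00117), with a rise in A0 and a fall in A1. For Hs6st1 the difference was -0.93 between A0 and CHO-S (adjusted p = 0.00341) and -0.69 between A1 and CHO-S (adjusted p = 0.0181). For B4galt7 it was 0.76 between A0 and CHO-S (adjusted p = 0.0268). The CHO-S results rest in part on stationary culture 1, the library of low depth. Without it they were -0.99, -0.81 and 0.74, and each was past the threshold.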

How the results depend on the processing

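Of 47 calls on the enzymes, 25 were kept under every alternative tried, and no called enzyme reversed direction. Alternatives restricted to A0 cultures 1 and 2 or 3 and 4 were chosen after seeing the data. Counts of enzymes past the threshold moved as follows, with the share of all genes in parentheses. Between A1 and A0 at exponential phase there were 2 to 5 when leaving out 1 culture (15.9% to 30.6%) and 3 with A0 cultures 3 and 4 alone (25.3%). Between A0 and CHO-S at stationary phase there were 4 with A0 cultures 3 and 4 alone (29.7%), and between A1 and CHO-S 2 to 8 when leaving out 1 culture (22.8% to 57.4%). Between A0 phases there were 3 with all 6 groups in 1 fit (35.2%), 1 with cultures 3 and 4 alone (27.2%) and 3 to 7 when leaving out 1 culture (32.9% to 38.4%). Between A1 phases there was 1 with all 6 groups in 1 fit (11.6%). Between CHO-S phases there were 2 with DESeq2 (15.7%), 1 with filterByExpr (20.5%), 2 with all 6 groups in 1 fit (19.2%) and 0 to 5 when leaving out 1 culture (0.0% to 47.7%). Interactions of A1 and A0 numbered 2 with DESeq2 (11.5%), 2 with filterByExpr (15.5%), 4 with A0 cultures 1 and 2 alone (22.7%) and 1 to 3 when leaving out 1 culture. Those of A0 and CHO-S numbered 0 with A0 cultures 3 and 4 alone and 1 to 4 when leaving out 1 culture, and those of A1 and CHO-S 2 with DESeq2 and 0 to 5. The cause was not tested.

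With the replicate block there were 3 interactions of A1 and A0 and 0 of A1 and CHO-S. All counts not named here or above stayed within 1.5 times. With the block, Xylt2 between A1 and stationary CHO-S was 0.0027 and Extl3 between CHO-S phases -0.021. Apart from A0 phases the numbers were not taken to pair cultures, with same-number correlations from -0.195 to 0.186. Leaving out 1 culture, Xylt2 between A1 and stationary CHO-S ran from -0.42 to 0.11, Extl3 from -0.24 to 0.0077, and between CHO-S phases Ndst2 from -0.31 to 0.19 and Extl3 from -0.086 to 0.18, none of them past the threshold with all cultures.

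The share of all genes called ran from 15.9% to 37.3% between A1 and A0 at exponential phase (25.7% as reported), from 22.8% to 57.4% between A1 and stationary CHO-S (34.8%) and from 0.0% to 47.7% between CHO-S phases (13.3%). Between A1 phases it ran from 11.6% to 47.2% (33.4%). For interactions it ran from 4.55% to 22.7% for A1 and A0 (8.92%) and from 5.47% to 17.6% for A0 and CHO-S (10.3%). For A1 and CHO-S it ran from 2.63% to 25.4% (7.60%). RLE size factors moved the median of all genes by at most 0.0385 (log2). Levels per length were not run, since no transcript length was at hand. Depth limits Hs2st1, with at most 109 reads per culture. In CHO-S stationary culture 1, the other stationary cultures lay above the 95% counting interval for 6 of the 10 enzymes, a gap larger than counting error.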
